A study of Danio rerio with 6 samples.

Results

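The genes described here are 10 genes of pigment cells, chosen by name from the 31624 genes listed for a sequencing study of zebrafish (Danio rerio) embryos. They are tyr, tyrp1b, dct, pmela, oca2, slc24a5 and slc45a2, which serve melanin and the organelle that holds it, together with the regulator mitfa, the pteridine gene gch2 and the purine gene pnp4a. Each name matched 1 gene, and all 10 passed the filter on low counts that left 20555 genes for testing. The study compared embryos labelled as a Trdmt1 knockout, 3 libraries, with wildtype embryos of a control group, 3 libraries. Trdmt1, also called Dnmt2, is an RNA methyltransferase that acts on transfer RNAs. The labels name embryo as the source and give no age, no kind of allele and no statement on separate clutches. The spread behind each p-value is therefore that between these libraries, and it may be technical.

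Zebrafish larvae carry black melanophores, yellow xanthophores and silvery iridophores, all derived from the neural crest. Melanophores make melanin from tyrosine inside melanosomes, xanthophores make yellow pteridines from guanosine triphosphate and also store carotenoids, and iridophores stack purine crystals that reflect light. The pigmented epithelium of the retina also makes melanin and uses most of the same genes, but it arises from the brain and does not need mitfa. In RNA of whole embryos, skin melanophores and retinal pigment epithelium cannot be told apart by the shared genes, nor can fewer cells of a type be told apart from less RNA per cell.

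Reads counted in genes totalled between 12877132, in control 3, and 18721589, in control 2. Knockout 3 stood apart from the other 5 libraries, at 84.9 on the first principal component of log2 expression against -21.4 to -13.6. Knockouts 1 and 2 were nearly alike, with a chi-square over degrees of freedom of 1.58 between their counts, where the other 14 pairs gave 11.7 to 75.6. By this measure control 3 was nearer to knockouts 1 and 2, at 11.7 and 11.9, than to controls 1 and 2, at 18.7 and 18.8. The measure grows with read depth, which was highest in controls 1 and 2. The value of 1.58 exceeds counting noise, but it does not show whether knockouts 1 and 2 came from separate embryos, which was not tested. They were kept as 2 libraries, and the p-values, SE and intervals treat them as separate. The targeted transcript, trdmt1, stood at 3.10, 2.60 and 1.08 RPKM in controls 1 to 3, against 1.59, 1.40 and 1.07 RPKM in knockouts 1 to 3. RPKM is reads per kilobase of exon, scaled to the reads of the library. Control 3 lay inside the knockout range, and the difference did not pass (log2 fold change -0.70 ± 0.38 SE, edgeR adjusted p = 0.746; two-sided exact permutation p = 0.3, where 0.1 is the smallest p that 3 against 3 allows). The transcript level therefore does not check the labels.

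The melanin genes had higher means in knockout than in control libraries, from 106% of control for dct to 136% for pmela. The xanthophore gene gch2, the iridophore gene pnp4a and the melanophore regulator mitfa had lower means in knockout libraries. None of these differences passed the test. By edgeR's quasi-likelihood test, 0 of the 10 genes were called higher and 0 lower, where a call is an adjusted p (Benjamini-Hochberg, over all tested genes) under 0.05, against 0.102% of all tested genes called higher and 0.0146% called lower. At an unadjusted p under 0.05 there was 1 of the 10, pmela, against 4.06% of tested genes higher and 3.41% lower. DESeq2 called 0 of the 10 as well, against 0.916% higher and 0.224% lower. The median log2 fold change of the 10 was 0.15, beside -0.00385 over all tested genes. Among the 10, 7 were positive and 3 negative, and over all tested genes 10167 were positive and 10388 negative. The 7 positive ones were the 7 melanin genes.

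**Figure D1:**
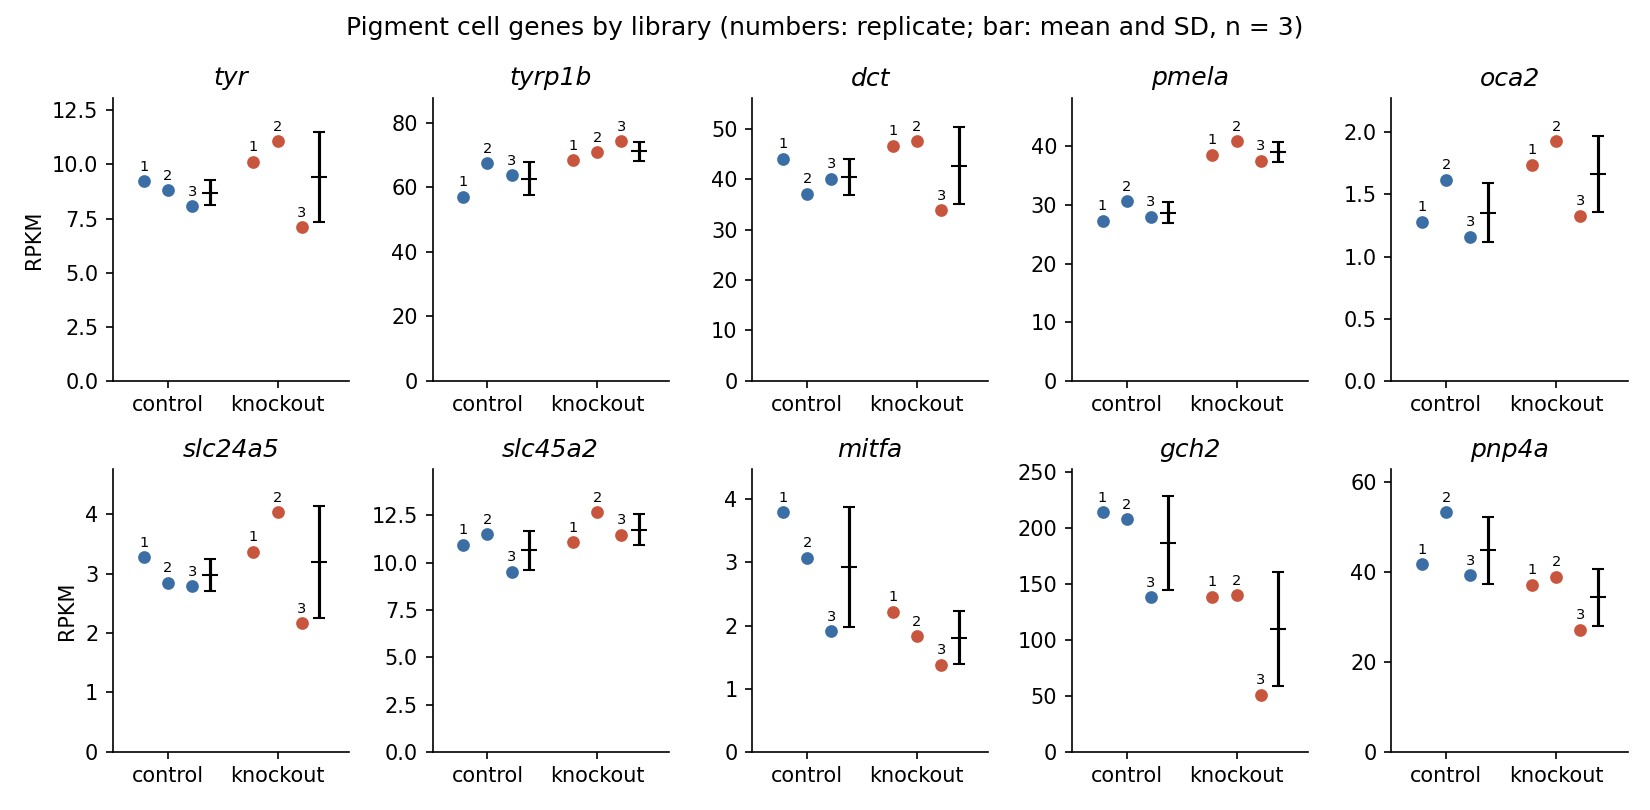
RPKM (vertical axes, from 0) of each of the 10 pigment cell genes in the 3 control libraries (blue) and the 3 knockout libraries (red), numbered by replicate, with group mean and SD in black. Knockout libraries lay above every control for pmela and tyrp1b and below every control for pnp4a, and knockout 3 was the lowest library for gch2, mitfa, pnp4a, tyr, dct and slc24a5.

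The first enzyme of the melanin pathway is tyrosinase, the product of tyr, which oxidises tyrosine. Transcripts of tyr stood at 9.22, 8.81 and 8.06 RPKM in controls 1 to 3, against 10.1, 11.1 and 7.10 RPKM in knockouts 1 to 3. Knockouts 1 and 2 were above all controls and knockout 3 was below all of them, so the groups overlapped. The knockout over control fold was 1.12, with a 95% interval of 0.819 to 1.52 (edgeR adjusted p = 0.881). The interval of the fold excluded a 2-fold change in either direction.

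Dopachrome tautomerase, the product of dct, acts further along the same pathway. It stood at 44.1, 37.1 and 40.1 RPKM in controls 1 to 3 and at 46.7, 47.6 and 33.9 RPKM in knockouts 1 to 3. As for tyr, knockouts 1 and 2 were the highest and knockout 3 the lowest of all libraries. The fold was 1.08, with a 95% interval of 0.828 to 1.42 (edgeR adjusted p = 0.901).

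The tyrosinase-related gene tyrp1b, whose product belongs to the same enzyme family and sits in the melanosome membrane, was the most abundant of the melanin genes per length. Its levels were 57.1, 67.5 and 63.7 RPKM in controls, against 68.6, 70.9 and 74.4 RPKM in knockouts. Here the groups did not overlap, but knockout 1 differed from control 2 by little, within the counting error of up to 2.49%. Knockout 3 was the highest library, unlike for tyr and dct. The means were 62.8 ± 5.23 and 71.3 ± 2.94 RPKM (SD, n = 3 each). The log2 fold change was 0.22 ± 0.14 (SE), which did not pass (edgeR adjusted p = 0.763).

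The premelanosome protein gene pmela encodes the protein whose fibrils form the scaffold on which melanin is laid down. It stood at 27.3, 30.7 and 28.0 RPKM in controls 1 to 3, against 38.6, 40.9 and 37.6 RPKM in knockouts 1 to 3. All 3 knockout libraries were above all 3 controls, and the knockouts were close to each other, including knockout 3. The control mean was 28.6 ± 1.80 RPKM and the knockout mean 39.0 ± 1.71 RPKM (SD, n = 3 each), a fold of 1.40 with a 95% interval of 1.14 to 1.73. Its unadjusted p was 0.00526, and it did not pass after adjustment over all tested genes (log2 fold change 0.49 ± 0.13 SE, edgeR adjusted p = 0.354). DESeq2 gave an adjusted p of 0.0716, and edgeR without knockout 3 gave an adjusted p of 0.0877. The fit without knockout 3 keeps only the nearly alike knockouts 1 and 2 in its knockout group, so its spread may be too small. Over the 12 alternatives the adjusted p ranged from 0.0716 to 0.827, the latter from edgeR with knockouts 1 and 2 summed. Overlap of groups was judged in RPKM throughout, scaled to the library total. It could differ on the log2 scale of the fit, which adds TMM factors. Of all tested genes, 6.30% had every knockout library above every control and 9.00% had every knockout library below. Among the 10 pigment cell genes these were 2, pmela and tyrp1b, and 1, pnp4a.

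The duplicate genes tyrp1a and pmelb, which arose in the fish genome duplication, were also high in knockouts 1 and 2. The tyrp1a transcript stood at 18.8, 16.3 and 16.0 RPKM in controls, against 20.1, 19.5 and 15.7 RPKM in knockouts, a lower level than tyrp1b in each library. The pmelb transcript stood at 11.4, 11.6 and 14.7 RPKM in controls, against 22.1, 22.6 and 11.2 RPKM in knockouts. Knockouts 1 and 2 were above every control for both duplicates, whereas knockout 3 was the lowest of the 6 libraries for both. The log2 fold change of pmelb was 0.60 ± 0.27 (SE) and did not pass (edgeR adjusted p = 0.667). For near-identical copies reads could be split, so values of single duplicates carry that uncertainty.

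Transporters of the melanosome membrane set its ion content and acidity. The gene slc45a2, mutated in albino zebrafish, stood at 10.9, 11.5 and 9.52 RPKM in controls, against 11.1, 12.7 and 11.5 RPKM in knockouts. In RPKM the libraries were interleaved. On the log2 scale of the fit, relative to the control mean, they did not overlap. They stood there at 0.03, 0.08 and -0.11 in controls 1 to 3 and at 0.10, 0.29 and 0.14 in knockouts 1 to 3. The fold was 1.13, with a 95% interval of 0.887 to 1.44 (edgeR adjusted p = 0.826). The gene slc24a5, a cation exchanger mutated in golden zebrafish, stood at 3.28, 2.85 and 2.79 RPKM in controls, against 3.37, 4.03 and 2.17 RPKM in knockouts. As with tyr and dct, knockouts 1 and 2 were above the controls and knockout 3 below them. Its log2 fold change of 0.14 ± 0.27 (SE) turned to -0.07 without knockout 2 (edgeR adjusted p = 0.929 with all 6 libraries).

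The lowest of the melanin genes per length was oca2, whose product regulates melanosome acidity and is lost in a common form of human albinism. It stood at 1.28, 1.62 and 1.16 RPKM in controls, against 1.74, 1.93 and 1.33 RPKM in knockouts. Knockouts 1 and 2 exceeded all controls, and knockout 3 lay within the control range. The fold was 1.27, with a 95% interval of 0.888 to 1.80 (edgeR adjusted p = 0.777). Only 86 to 179 reads supported oca2 in a library and 66 to 130 reads slc24a5, so counting error alone reached 10.8% and 12.3% in the shallowest library of each.

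Summed over the 7 melanin genes, the level was 153, 160 and 153 RPKM in controls 1, 2 and 3 and 180, 189 and 168 RPKM in knockouts 1 to 3. The sum rests mostly on tyrp1b, dct and pmela. Relative to the control mean, the median of the 7 was 0.25, 0.39 and 0.02 in knockouts 1, 2 and 3 and -0.04 to 0.07 in the controls, on the log2 scale. Among these genes, tyr, dct and slc24a5 varied most alike over the 6 libraries, followed by tyrp1b with slc45a2 and tyrp1b with pmela. No grouping was tested. The root mean square difference of centred log2 profiles was 0.08 between tyr and slc24a5 and 0.09 between tyr and dct. It was 0.12 between tyrp1b and slc45a2, and 0.33 between tyrp1b and slc24a5. Between pmela and slc45a2 it was 0.17, beside 0.16 between tyr and oca2 and 0.18 between oca2 and slc45a2. Knockout 3 was below the control mean for tyr, dct and slc24a5 and above it for tyrp1b, slc45a2 and pmela.

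The regulator mitfa encodes the transcription factor that neural crest cells need to become melanophores, and which switches on the melanin genes. It stood at 3.79, 3.07 and 1.91 RPKM in controls 1 to 3, against 2.22, 1.83 and 1.38 RPKM in knockouts 1 to 3. Control 3 lay within the knockout range, and knockout 3 was the lowest library. The means were 2.92 ± 0.949 and 1.81 ± 0.420 RPKM (SD, n = 3 each), so the knockout stood at 61.9% of control. The log2 fold change of -0.65 ± 0.31 (SE) did not pass (edgeR adjusted p = 0.698), and the 95% interval of the fold ran from 0.395 to 1.03. Over the 12 alternatives the log2 fold change ran from -0.86, without control 3, to -0.41, without control 1. The edgeR unadjusted p without control 3 was 0.0215, and the adjusted p was 0.531 to 0.976 over the alternatives. Between 48 and 162 reads per library supported mitfa. The ratio of tyrp1b to mitfa in RPKM was 15.1, 22.0 and 33.4 in controls 1, 2 and 3 and 30.9, 38.7 and 53.9 in knockouts 1, 2 and 3, with control 3 inside the knockout range. Its paralog mitfb, known from the retinal pigment epithelium, stood at 1.17, 1.14 and 0.54 RPKM in controls, against 0.68, 0.58 and 0.70 RPKM in knockouts.

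**Figure D2:**
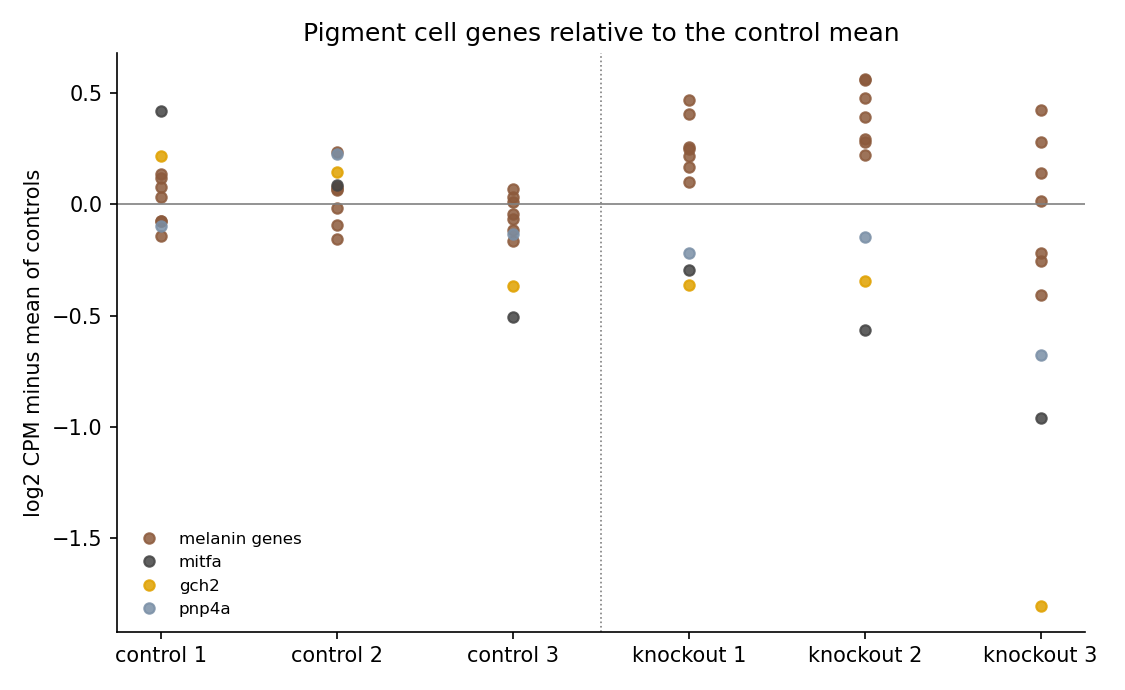
Difference of each gene's log2 CPM (counts scaled to library size) from its mean over the 3 controls (vertical axis), for each library (horizontal axis), with the 7 melanin genes in brown and mitfa, gch2 and pnp4a in their own colours. In knockout 3 the values range from -1.80 for gch2 to 0.43 for pmela, and in knockouts 1 and 2 all melanin genes lie above 0 and gch2, mitfa and pnp4a below it.

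The gene gch2 encodes a GTP cyclohydrolase, the entry enzyme of pteridine synthesis in xanthophores. In controls it was the most abundant of the 10 genes per length, at 214, 208 and 138 RPKM in controls 1, 2 and 3, and it stood at 139, 140 and 51.2 RPKM in knockouts 1 to 3. Control 3 lay just below knockouts 1 and 2, and knockout 3 was far below the rest. The means were 187 ± 42.2 and 110 ± 50.9 RPKM (SD, n = 3 each), 58.9% of control. The log2 fold change was -0.72 ± 0.36 (SE) and did not pass (edgeR adjusted p = 0.730), with a 95% interval of the fold from 0.343 to 1.08. Without knockout 3 the log2 fold change was -0.38 (edgeR adjusted p = 0.416, and 0.373 to 0.976 over the 12 alternatives). The 0.373 came from the fit with replicate number as a block, where the log2 fold change was -0.83 (edgeR unadjusted p = 0.00527). DESeq2 on all 6 libraries gave gch2 an unadjusted p of 0.0315 and an adjusted p of 0.580. With 1504 to 7745 reads per library, the counting error was at most 2.58%. The differences among control 3 and knockouts 1 and 2, at 138, 139 and 140 RPKM, were no larger than that. Controls 1 and 2 and knockout 3 lay apart from these by far more than counting error. The ratio of gch2 to tyrp1b in RPKM was 3.75, 3.08 and 2.17 in controls 1, 2 and 3 and 2.02, 1.97 and 0.689 in knockouts 1, 2 and 3. Every control was above every knockout in this ratio, which was chosen after the values were seen and was not tested.

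Its paralog gch1, which supplies the cofactor tetrahydrobiopterin in neurons, stood lower, at 3.94, 4.17 and 2.78 RPKM in controls, against 3.19, 3.36 and 2.57 RPKM in knockouts. Xanthophore and pteridine genes, gch1 among them and not all particular to xanthophores, were read from a list of 24. Of these, 21 symbols matched and 20 genes were tested. Of the 20 tested, 0 were called in either direction, 17 had negative and 3 positive log2 fold changes, and the median was -0.22. Over all 20555 tested genes, 10388 had negative values and the median was -0.00385. In 4 of the 20, all knockout libraries lay below all controls, against the 9.00% of tested genes above, and in 0 all lay above. By library, the list's median log2 difference from the control mean was 0.05, 0.16 and -0.13 for controls 1 to 3 and -0.12, -0.11 and -0.45 for knockouts 1 to 3. Knockouts 1 and 2 thus lay beside control 3. The list's median was -0.11 without knockout 3.

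Of the named genes of that list, sprb, a sepiapterin reductase gene, had the largest negative value. It stood at 7.28, 13.2 and 8.93 RPKM in controls, against 5.56, 6.0 and 1.5 RPKM in knockouts, which did not overlap (log2 fold change -1.13 ± 0.46 SE, edgeR adjusted p = 0.639). Next was csf1rb, a paralog of the receptor gene csf1ra that xanthophores depend on, at 1.19, 1.61 and 1.23 RPKM in controls, against 0.71, 0.69 and 0.77 RPKM in knockouts. The knockouts of csf1rb were close to each other and all below the controls (log2 fold change -0.85 ± 0.22 SE, edgeR adjusted p = 0.301). The carotenoid-cleaving gene bco1, named after its values were seen, stood at 19.5, 20.6 and 17.4 RPKM in controls, against 12.3, 12.8 and 11.4 RPKM in knockouts (log2 fold change -0.62 ± 0.14 SE, edgeR adjusted p = 0.232). The receptor gene csf1ra itself stood at 7.82, 7.42 and 5.44 RPKM in controls, against 5.94, 6.65 and 5.36 RPKM in knockouts. The xanthophore marker aox5, an aldehyde oxidase gene, stood at 18.2, 21.5 and 17.6 RPKM in controls, against 16.7, 17.7 and 7.41 RPKM in knockouts, with knockout 3 the lowest. Among genes of at least 1 RPKM the positive values were small, with qdprb1, a dihydropteridine reductase gene, at a log2 fold change of 0.16 and mycbp2, a ubiquitin ligase gene, at 0.02 (edgeR adjusted p = 0.896 and 0.987).

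**Figure D3:**
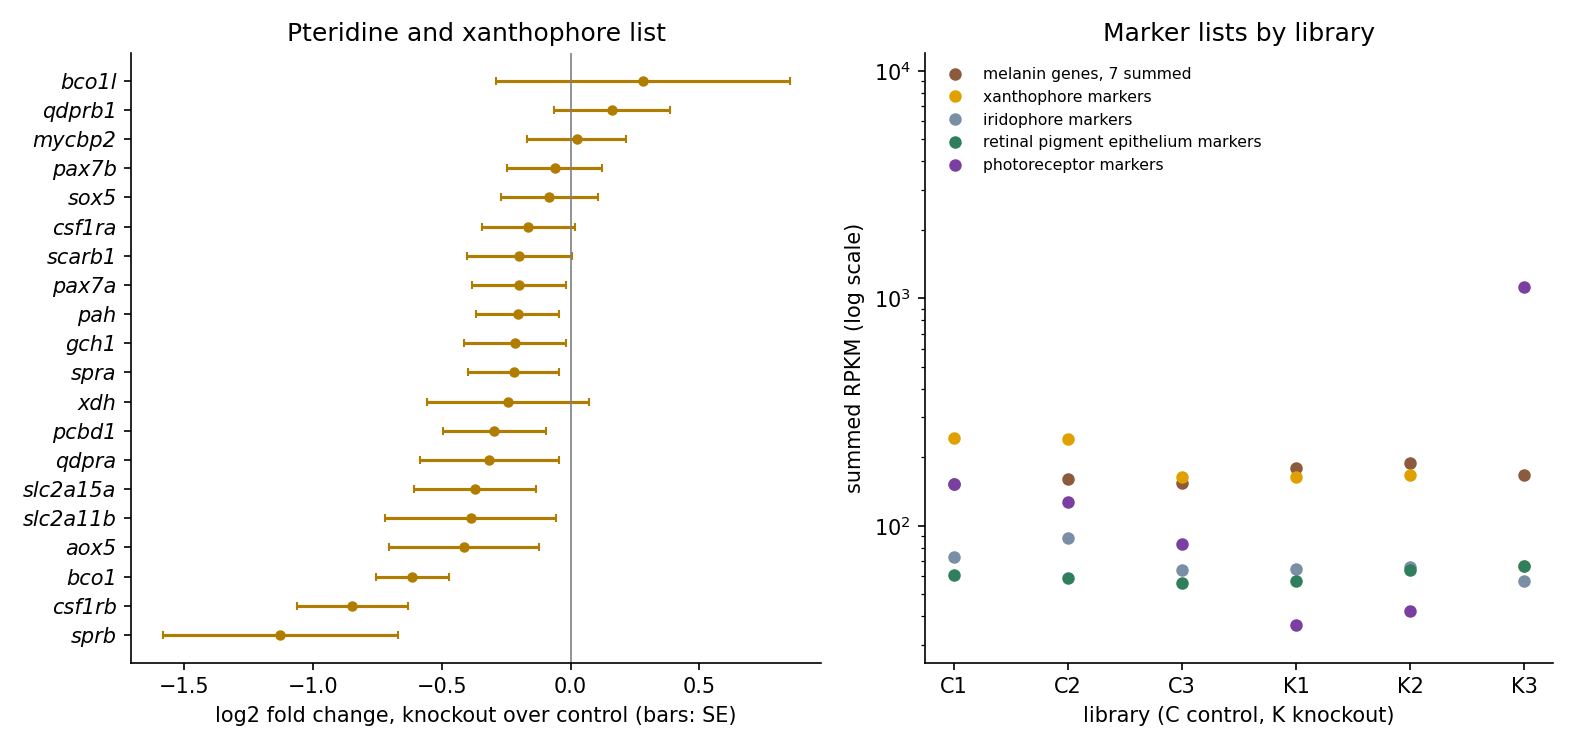
Left, edgeR log2 fold changes with SE (horizontal axis) of the 20 tested genes of the pteridine and xanthophore list, none past the threshold; 17 lie below 0. Right, summed RPKM on a log axis of the melanin genes and of marker lists in each library (C, control; K, knockout), where photoreceptor markers reach 1124 RPKM in knockout 3 and xanthophore markers, mostly gch2, stand at 66.4 RPKM.

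The purine nucleoside phosphorylase gene pnp4a marks iridophores, whose crystals are made of guanine. It stood at 41.8, 53.3 and 39.4 RPKM in controls 1 to 3, against 37.2, 39.0 and 27.2 RPKM in knockouts 1 to 3. All knockouts were below all controls, but knockout 2 differed from control 3 by little, and knockout 3 was again the lowest. The means were 44.8 ± 7.44 and 34.5 ± 6.38 RPKM (SD, n = 3 each), 76.8% of control. The log2 fold change of -0.34 ± 0.18 (SE) did not pass (edgeR adjusted p = 0.749), and was -0.19 without knockout 3. The other genes read as iridophore markers, ltk, tfec and gpnmb, overlapped between the groups, whereas ednrba, on the purine and iridophore list below, did not. The receptor kinase gene ltk, which specifies iridophores, stood at 3.03, 4.70 and 2.75 RPKM in controls, against 3.74, 3.46 and 2.94 RPKM in knockouts. The transcription factor gene tfec stood at 3.77, 2.71 and 2.21 RPKM in controls, against 2.63, 2.45 and 1.77 RPKM in knockouts.

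In the list of purine synthesis and iridophore genes, 25 of 27 symbols matched and all 25 were tested. Again 0 were called, with 8 positive, 17 negative and a median log2 fold change of -0.04. A related phosphorylase gene, pnp5a, had the largest positive value, at 17.2, 23.2 and 22.4 RPKM in controls, against 45.5, 46.4 and 29.6 RPKM in knockouts. All knockouts were above all controls there (log2 fold change 0.99 ± 0.21 SE, edgeR adjusted p = 0.186), so the phosphorylase paralogs pnp5a and pnp4a had opposite signs. The homeobox gene alx4b had a log2 fold change of 0.36 (edgeR adjusted p = 0.806). The endothelin receptor gene ednrba, mutated in rose zebrafish, stood at 13.8, 17.5 and 9.60 RPKM in controls, against 9.23, 7.89 and 6.15 RPKM in knockouts (log2 fold change -0.77 ± 0.24 SE, edgeR adjusted p = 0.471). The purine synthesis gene paics stood at 175, 161 and 288 RPKM in controls, against 133, 136 and 96.4 RPKM in knockouts (log2 fold change -0.74 ± 0.26 SE, edgeR adjusted p = 0.547). Neither ednrba nor paics overlapped between groups. In this list, 3 of the 25 had every knockout below every control and 1 had every knockout above. Over all tested genes the shares were 9.00% and 6.30%.

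Genes of melanosome formation and transport outside the 7 were read from a list of 34, of which 29 matched and were tested. Here too 0 were called, 13 had positive and 16 negative values, and the median log2 fold change was -0.03. Among genes of at least 1 RPKM, the next positive value after that of pmelb was that of tpcn2, a cation channel gene of endolysosomes, at 0.29 (edgeR adjusted p = 0.823). The largest negative ones were held by hps1, whose product serves the biogenesis of lysosome-related organelles, and myo5aa, a myosin motor gene. The hps1 transcript stood at 5.08, 4.97 and 4.11 RPKM in controls, against 3.73, 3.36 and 2.84 RPKM in knockouts (log2 fold change -0.47 ± 0.17 SE, edgeR adjusted p = 0.580). The myo5aa value of -0.39 rested on knockout 3, at 1.98 RPKM against 4.55 to 6.77 RPKM in the other libraries.

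Neural crest genes and signals to pigment cells were read from a list of 31, of which 28 matched and 26 were tested. There were 0 calls, 14 positive and 12 negative values, and a median log2 fold change of 0.01. The crest factor gene sox10, required for all of these pigment cells, stood at 9.11, 10.3 and 9.69 RPKM in controls, against 10.3, 9.91 and 11.2 RPKM in knockouts, so the groups overlapped. The receptor kinase gene kita, which melanophores need to migrate and survive, stood at 3.08, 3.68 and 3.89 RPKM in controls, against 3.14, 3.16 and 4.20 RPKM in knockouts. Among genes of at least 1 RPKM the largest positive values were those of sox9a, also a cartilage gene, at 0.64 (edgeR adjusted p = 0.626) and snai1b at 0.41 (edgeR adjusted p = 0.767). For sox9a, knockout 3 stood at 59.2 RPKM and the other libraries between 24.1 and 33.1 RPKM. The melanocortin receptor gene mc1r, which governs melanin synthesis and dispersal, stood at 3.70, 4.46 and 3.22 RPKM in controls, against 2.56, 3.09 and 2.28 RPKM in knockouts, without overlap (log2 fold change -0.48 ± 0.25 SE, edgeR adjusted p = 0.741). The gene pmchl, for a hormone precursor of the melanin-concentrating kind, had a log2 fold change of -0.90 (edgeR adjusted p = 0.691). Of the 26 tested, 2 had every knockout below every control and 1, ednraa, had every knockout above. The shares over all tested genes were 9.00% below and 6.30% above.

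Because melanin genes are also used in the eye, markers of the retinal pigment epithelium were read beside them. Of 10 listed, 8 matched and were tested, and 0 were at 0 reads in any library. Their summed level was 56.0 to 60.9 RPKM in controls and 57.4 to 66.8 RPKM in knockouts. The largest part of this sum was rpe65b in every library except knockout 3. Of the 8 genes, 6 had positive and 2 negative log2 fold changes, with a median of 0.27, beside -0.00385 over all tested genes. The visual cycle gene rpe65a stood at 5.21, 8.27 and 8.77 RPKM in controls, against 10.3, 11.3 and 23.9 RPKM in knockouts. The retinaldehyde-binding protein gene rlbp1b had 3.43, 2.94 and 3.56 RPKM in controls, against 4.33, 4.68 and 6.25 RPKM in knockouts. For 4 of the 8, rpe65a, rlbp1b, rgra and rdh5, every knockout was above every control, as for pmela and tyrp1b, against 6.30% of all tested genes. None of the 8 passed (edgeR adjusted p = 0.505 for rpe65a, the smallest). The paralog rpe65b went the other way, at 34.0, 30.6 and 22.6 RPKM in controls, against 21.4, 23.6 and 14.9 RPKM in knockouts. The part of the eye in the values of the melanin genes was not tested.

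Photoreceptor and hatching gland markers were read as markers of embryo maturity, although the labels give no age. They set knockout 3 apart most. That library was the lowest for gch2, mitfa, pnp4a, tyr, dct and slc24a5, and the highest for tyrp1b. Photoreceptor markers, 16 listed and all matched, summed to 83.1 to 152 RPKM in controls, 36.6 and 42.1 RPKM in the libraries of knockouts 1 and 2 and 1124 RPKM in knockout 3. The hatching gland list, of which 7 of 8 symbols matched, summed to 272 to 413 RPKM in controls, 378 and 395 RPKM in the libraries of knockouts 1 and 2 and 217 RPKM in knockout 3. Of the latter, 162 RPKM was cd63, which is not particular to the gland and was highest in knockout 3. The hatching enzyme gene he1a was at 15.0 RPKM there and between 91.1 and 198 RPKM elsewhere, and the list's median log2 difference from the control mean was -2.56 in knockout 3. In the same libraries the xanthophore markers gch2, aox5, csf1ra and pax7a summed to 165 to 243 RPKM in controls, 164 and 167 RPKM in the libraries of knockouts 1 and 2 and 66.4 RPKM in knockout 3. This sum rests mostly on gch2. In knockout 3, csf1ra was at 5.36 RPKM beside 5.44 RPKM in control 3, and pax7a at 2.43 RPKM, as in control 1. Apart from a second entry of crx in knockout 3 and he2 in control 3, no gene of these lists was at 0 reads in a library. Their part in the pigment gene values was not tested. Without knockout 3, 0 of the 10 pigment cell genes were called, against 0.789% of tested genes called higher and 0.196% lower. The knockout group of that fit was the nearly alike knockouts 1 and 2.

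**Figure D4:**
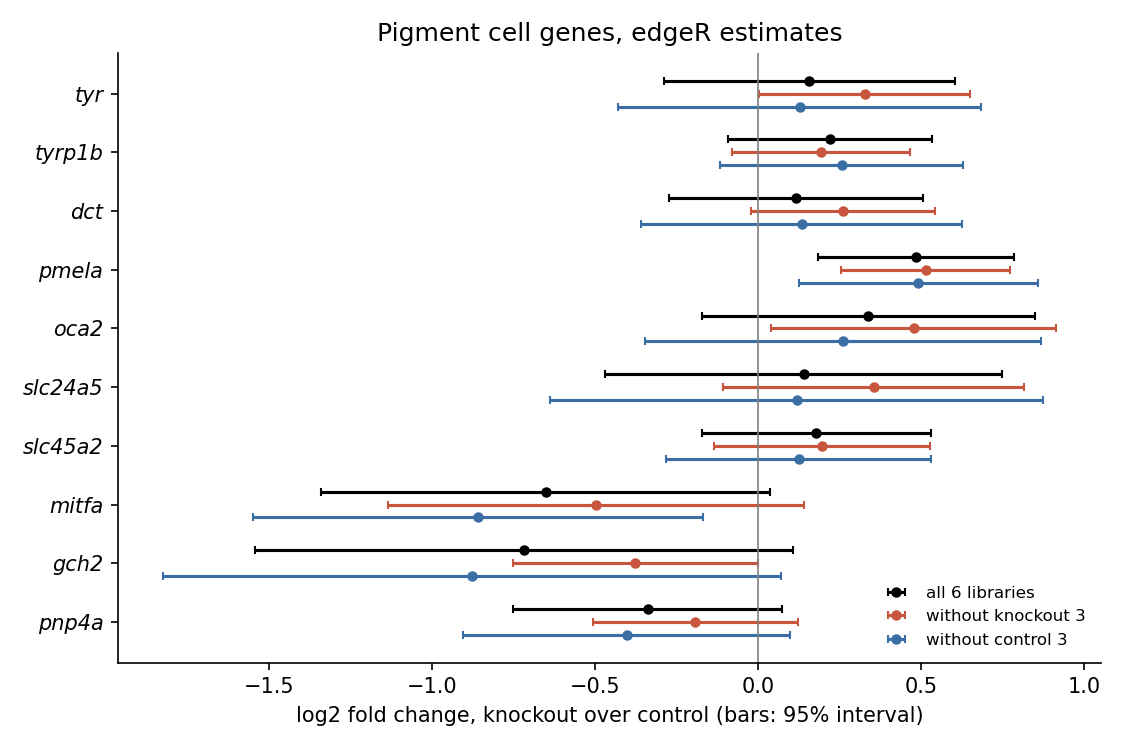
edgeR log2 fold change, knockout over control (horizontal axis), with its 95% interval for each of the 10 genes, from all 6 libraries (black), without knockout 3 (red) and without control 3 (blue). With all 6 libraries the interval of pmela runs from 0.18 to 0.79 and those of the other 9 genes include 0. Without knockout 3, the knockout group was the nearly alike pair of libraries.

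By level per length, the controls ranked gch2 first, then tyrp1b, pnp4a, dct, pmela, slc45a2, tyr, slc24a5, mitfa and oca2. Among neighbours in this order, pnp4a and dct overlapped across the control libraries, as did slc24a5 and mitfa. In knockouts more neighbours overlapped. There gch2 overlapped with tyrp1b, dct with pmela, slc45a2 with tyr, and mitfa with oca2, besides the pairs already overlapping in controls. The overlaps of gch2 with tyrp1b and of dct with pmela came from knockout 3 alone, at 51.2 RPKM for gch2 and 33.9 RPKM for dct. That of slc45a2 with tyr was a tie at 11.08 RPKM, between slc45a2 in knockout 1 and tyr in knockout 2. Within each library slc45a2 was above tyr. The mean of gch2 was 2.98 times that of tyrp1b in controls and 1.54 times in knockouts.

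The genes whose library profile was most like the mean of the 7 melanin genes were cldn7b, aga, keap1a, ivd and ofd1, out of 14182 candidates. Likeness was the root mean square difference of centred log2 CPM over the 6 libraries, at 0.02 for cldn7b, a claudin gene of epithelia, and 0.05 to 0.06 for the others. The cldn7b transcript stood at 47.9, 50.8 and 44.9 RPKM in controls, against 57.7, 63.0 and 47.1 RPKM in knockouts. None of the 5 passed the test of knockout against control (edgeR adjusted p = 0.756 to 0.856). The 7 melanin genes differed by 0.10 to 0.17 from their own mean on the same measure, more than these 5 genes, which were picked for likeness.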

How the data were processed

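The deposited table holds whole-number read counts per gene and library, RPKM values and exonic lengths; per the file headers the authors made the RPKM, which equal counts over length and library total within 0.0051. Per the submitters' processing notes, Trimmomatic 0.30, HISAT2 2.0.1, HTSeq 0.6.1 and DESeq were used with build Zv9. Roles, settings and strand use are not given in the sources used here, and reads of antisense or overlapping partners cannot be told apart. A further 6 columns of per-sample values were left out. Coordinates and sequences were not used here.

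Counts were filtered with filterByExpr, scaled by TMM and tested in R 4.3.3 with edgeR 4.0.16 (robust quasi-likelihood, no covariate), with Benjamini-Hochberg adjustment over 20555 genes. The SE and the 95% interval come from the F statistic, and log2 CPM used a prior count of 2. The permutation test used SciPy 1.17.1. The procedure was tested on simulated data. The simulated libraries held no nearly alike pair and no library set apart, so they cannot give the error rates for these libraries. Counting precision follows from 12877132 to 18721589 reads per library.

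The members and lists were chosen with earlier results of these data known. The rule named the 10 genes, trdmt1, genes of like profile and, per list, any called gene and the 2 largest values in each direction at a mean of at least 1 RPKM; markers, paralogs and other list genes given with values were chosen after these were seen. Alternatives were no filter, a mean of at least 2 RPKM, DESeq2 size factors, DESeq2 1.42.0, a replicate block, leaving out 1 library at a time, and knockouts 1 and 2 summed.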

Additional observations from a re-analysis of the deposited data

How the results depend on the processing

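None of the 10 pigment cell genes was called under any of the 12 alternatives. In 118 of 119 gene and alternative pairs the direction held. The exception was slc24a5, at -0.0667 without knockout 2 and up to 0.355 without knockout 3; the cause was not tested. At a mean of at least 2 RPKM oca2 and trdmt1 were not tested. The median log2 fold change of the 10 lay between 0.0276 and 0.229 when 1 library was left out, and that of trdmt1 between -1.01 and -0.40. Over all genes, 21 were called higher and 3 lower. Leaving out 1 library gave 0 to 165 higher and 0 to 41 lower, with the lowest without control 2 and the highest without knockout 3. The fit without knockout 3 keeps only the nearly alike knockouts 1 and 2, so its spread may be too small. Without control 2, edgeR called none, although 595 genes higher and 361 lower had an unadjusted p under 0.05; DESeq2 on all 6 libraries called 188 and 46. No filter on low counts gave 47 and 6, and knockouts 1 and 2 summed gave 16 higher and 0 lower by edgeR, with 488 lower at an unadjusted p under 0.05. The replicate block gave 17 higher and 1 lower. Same-numbered deviations from the group means correlated at -0.000146, -0.0587 and -0.0348, and those of unlike number at -0.0260 to 0.0482. With knockouts 1 and 2 nearly alike and knockout 3 apart, these values cannot decide whether the numbers pair the libraries. The block was kept only as an alternative. Depth was lowest for mitfa among the 10 genes, at 48 reads in knockout 3, where counting error was 14.4%.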

Other observations

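For gch2 the genes with the most similar library profile, by the same root mean square difference and chosen after its values were seen, were cidec, hoxc13a, pvalb9, slc30a2 and ugt5a5, at 0.13 to 0.16 on the log2 scale. The fat droplet gene cidec had 5.79, 5.75 and 4.05 RPKM in controls, against 3.88, 3.50 and 1.08 RPKM in knockouts. The homeobox gene hoxc13a had 13.3, 14.7 and 10.4 RPKM in controls, against 9.01, 9.36 and 4.14 RPKM in knockouts. In each of the 5 genes knockout 3 was the lowest library, as it was for gch2, and none of the 5 passed (edgeR adjusted p = 0.621 to 0.741).

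The annotation terms carried by the deposited table name pigment or melanin for 7 of the 10 genes, and not for dct, gch2 or pnp4a. In all, 132 genes carry such a term, 125 of them tested. Of these, 0 were called, 71 had positive log2 fold changes and the median was 0.04. Over all 20555 tested genes, 0.102% were called higher and 0.0146% lower, 10167 had positive values and the median was -0.00385.

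The ratio of pmela to dct in RPKM was 0.619, 0.827 and 0.697 in controls 1, 2 and 3 and 0.826, 0.860 and 1.11 in knockouts 1, 2 and 3. Control 2 and knockout 1 were nearly equal in this ratio. The ratio of gch2 to pnp4a was 5.12, 3.90 and 3.51 in controls and 3.73, 3.59 and 1.89 in knockouts. It was lowest in knockout 3, but control 3 lay below knockouts 1 and 2, so the groups overlapped.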
